A study of Homo sapiens with 12 samples.

Results

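The 9 genes described here encode the sensors of endoplasmic reticulum (ER) stress, the kinases that phosphorylate the translation factor eIF2α, and eIF2α itself. They are EIF2AK3, EIF2AK1 and EIF2AK4 for the kinases PERK, HRI and GCN2, EIF2S1 for eIF2α, ERN1 for IRE1α, XBP1 for the transcription factor that IRE1α switches on, and ATF6, ATF6B and CREB3L2 for transcription factors held in the ER membrane. They were taken by gene symbol from the 30358 genes that are listed in both deposited count tables. All 9 were found and all 9 passed the filter on low counts in both lines, with 224 to 7301 reads per gene and library.

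Poly-A RNA was sequenced from KYSE30, a human esophageal squamous cell carcinoma (ESCC) line, and from cells labelled U138MG, a glioblastoma (GBM) line, both labelled wild type. Cultures received 100 nM PTDSS1i, the small-molecule inhibitor DS55980254 of the phosphatidylserine synthase PTDSS1, or DMSO, the vehicle, for 48 h, with 3 libraries in each of the 4 groups and 12 in all. The comparison asks how the RNA of tumor cells responds when phosphatidylserine synthesis is blocked. The lines were deposited in separate count tables with different gene lists, so line and any batch cannot be told apart.

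The libraries held 18800932 to 26514658 counts. The labelled cell types were checked against marker genes, given as CPM, counts relative to the library total. The libraries labelled U138MG had KRT5 at 507 to 1544 CPM, TP63 at 184 to 284 and CDH1 at 268 to 465, which are keratinocyte and epithelial genes. KRT15 (409 to 5145) and EPCAM (242 to 355) were high too, while KRT14 (0.0418 to 0.366) and KRT6A (0.366 to 1.50), the remaining markers of that list, were near the floor. Of the glial and mesenchymal genes, FN1 was at 42.2 to 80.2 CPM, SOX2 at 3.81 to 41.1 and CDH2 at 10.9 to 12.6, while NES was at 0.422 to 2.72, VIM at 0.157 to 0.482, GFAP at 0.905 to 2.51 and OLIG2 without a count in all 6 libraries, which allows up to 0.157 CPM (3 counts) in the smallest of them. The labels give these cultures the medium of KYSE30, while the study's methods give DMEM. High KRT5, TP63 and CDH1 with VIM and GFAP near the floor go against the glioblastoma label, and the samples are therefore called the libraries labelled U138MG. KYSE30 libraries had CDH1 at 493 to 713 CPM, EPCAM at 271 to 316 and TP63 at 62.8 to 103, but KRT5 at only 0 to 0.133. KRT15 was at 38.6 to 78.4 CPM in KYSE30, while KRT6A reached 8.99 and KRT14 0.795. SOX2 (86.0 to 103) and VIM (3.08 to 27.1) were above their ranges in the libraries labelled U138MG. FN1 (35.5 to 122) spanned its range there. CDH2 (5.72 to 7.37) and GFAP (0 to 0.0396) were below theirs, and NES (0.199 to 0.443) overlapped. These marker levels were not tested between the lines. The summed level of the 7 squamous and epithelial markers was 6870 to 7668 CPM under DMSO and 1718 to 1838 under PTDSS1i in the libraries labelled U138MG, and 902 to 971 and 1147 to 1179 CPM in KYSE30. The glial and mesenchymal sum was 125 to 134 CPM under DMSO and 60.8 to 67.1 under PTDSS1i in the libraries labelled U138MG (7 markers), and 188 to 231 and 155 to 159 CPM in KYSE30 (the 6 markers its table lists). These sums moved with the treatment in both lines, and their part in the results below was not tested.

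The unfolded protein response starts from sensors that span the ER membrane and register misfolded protein in the lumen or a disturbed membrane lipid composition. PERK phosphorylates eIF2α, which slows translation initiation as a whole and favours the translation of ATF4. IRE1α is an RNase that removes a short intron from XBP1 mRNA in the cytosol, after which the mRNA encodes an active transcription factor, and ATF6 travels to the Golgi where proteases release its soluble part. HRI responds to heme shortage and mitochondrial stress and GCN2 to amino acid shortage, so the eIF2α kinases share a substrate but not a trigger. PERK, IRE1α, ATF6, HRI and GCN2 are switched on after translation, and the values given here are RNA levels only.

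The intron that IRE1α removes from XBP1 is shown because the gene counts cannot tell the spliced from the unspliced mRNA, so a rise of XBP1 below is a rise of both forms summed. It lies in exon 4 of the GENCODE transcript, at chr22:28796127-28796152 on the minus strand of GRCh38, and is in capitals within the surrounding coding sequence (chr22:28796107-28796172).
XBP1 intron and flanks: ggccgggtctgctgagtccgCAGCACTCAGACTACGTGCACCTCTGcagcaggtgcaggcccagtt
Removing its 26 bases shifts the reading frame of this transcript from 261 to 376 residues. Of the 2 XBP1 promoters searched, the other matched none of the motifs, and a stretch of 1 is shown because it holds an ER stress response element (ERSE). This is CCAAT and CCACG with 9 bases between them, the element that ATF6 is known to bind together with NF-Y. The stretch is chr22:28800598-28800661 on the minus strand, from RefSeq promoters of GRCh38.p14, with the element in capitals at positions -52 to -34 from the start site.
XBP1 promoter: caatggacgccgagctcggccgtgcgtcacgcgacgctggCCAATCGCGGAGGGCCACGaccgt
Searched on both strands from 250 bases before to 50 after each start, ERSE was in 27 of 34943 promoters (0.0773%). Promoters of 8 of the 9 genes, 10 promoters in all, were in the table, and EIF2AK1 was not among them. Among these 10, XBP1 was the only match to ERSE, and none matched ERSE-II (ATTGG and CCACG with 1 base between them, in 0.0544% of all promoters) or the UPR element core TGACGTG (1.97%). The amino acid response core TGATGNAA, found in 3.62% of all promoters, was in 1 of the 2 CREB3L2 promoters, at positions 16 to 23 downstream of its start. A match is a description of letters and not of binding.

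PTDSS1i was compared with DMSO in each line by edgeR's quasi-likelihood test on the counts, with Benjamini-Hochberg adjustment over all genes tested, and a gene was called at an adjusted p under 0.05. In KYSE30, 4 of the 9 genes rose, EIF2AK3, XBP1, ERN1 and EIF2AK1, against a background of 30.1% of all 16389 genes tested. The 3 that fell were EIF2AK4, EIF2S1 and CREB3L2, against 32.0% of all genes, and ATF6 and ATF6B were not called. In the libraries labelled U138MG, 7 of the 9 rose, against 33.9% of 17666 genes, and EIF2AK4 and ATF6B fell, against 33.6%. The 3 PTDSS1i libraries did not overlap the 3 DMSO libraries for 7 of the 9 genes in KYSE30, where 66.3% of all genes did not overlap, and for 9 of 9 in the libraries labelled U138MG, where that share was 71.4%. So large a part of the genes changed that being called says little about these 9 in particular.

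Changes past 2-fold were fewer. EIF2AK3 and XBP1 rose past it in KYSE30, 2 of 9 where 6.40% of all genes did, and EIF2AK3, XBP1 and ERN1 in the libraries labelled U138MG, 3 of 9 against 8.19%. None of the 9 fell past 2-fold in either line, against 7.04% and 11.6% of all genes. XBP1 in KYSE30 sat on this threshold, with a log2 fold change of 1.01. It came just under when replicate 1 of either group or replicate 2 of DMSO was left out, and the count was 1.

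The median log2 fold change of the 9 genes was 0.054 in KYSE30 and 0.53 in the libraries labelled U138MG, where the medians of all genes tested were -0.025 and -0.026. These values use TMM scaling, edgeR's default, and scaling by library size alone moved the medians of all genes to -0.13 and -0.17. The share of calls that were higher then went from 48.5% to 37.8% in KYSE30 and from 50.2% to 37.1% in the libraries labelled U138MG, where upper-quartile scaling also gave 37.1%. Of the 9 genes, EIF2AK1 in both lines and ATF6 and ATF6B in KYSE30 changed call or sign with the scaling, as given with each. The RNA is that of whole cultures, so fewer cells with a transcript and less of it per cell cannot be told apart.

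**Figure D1:**
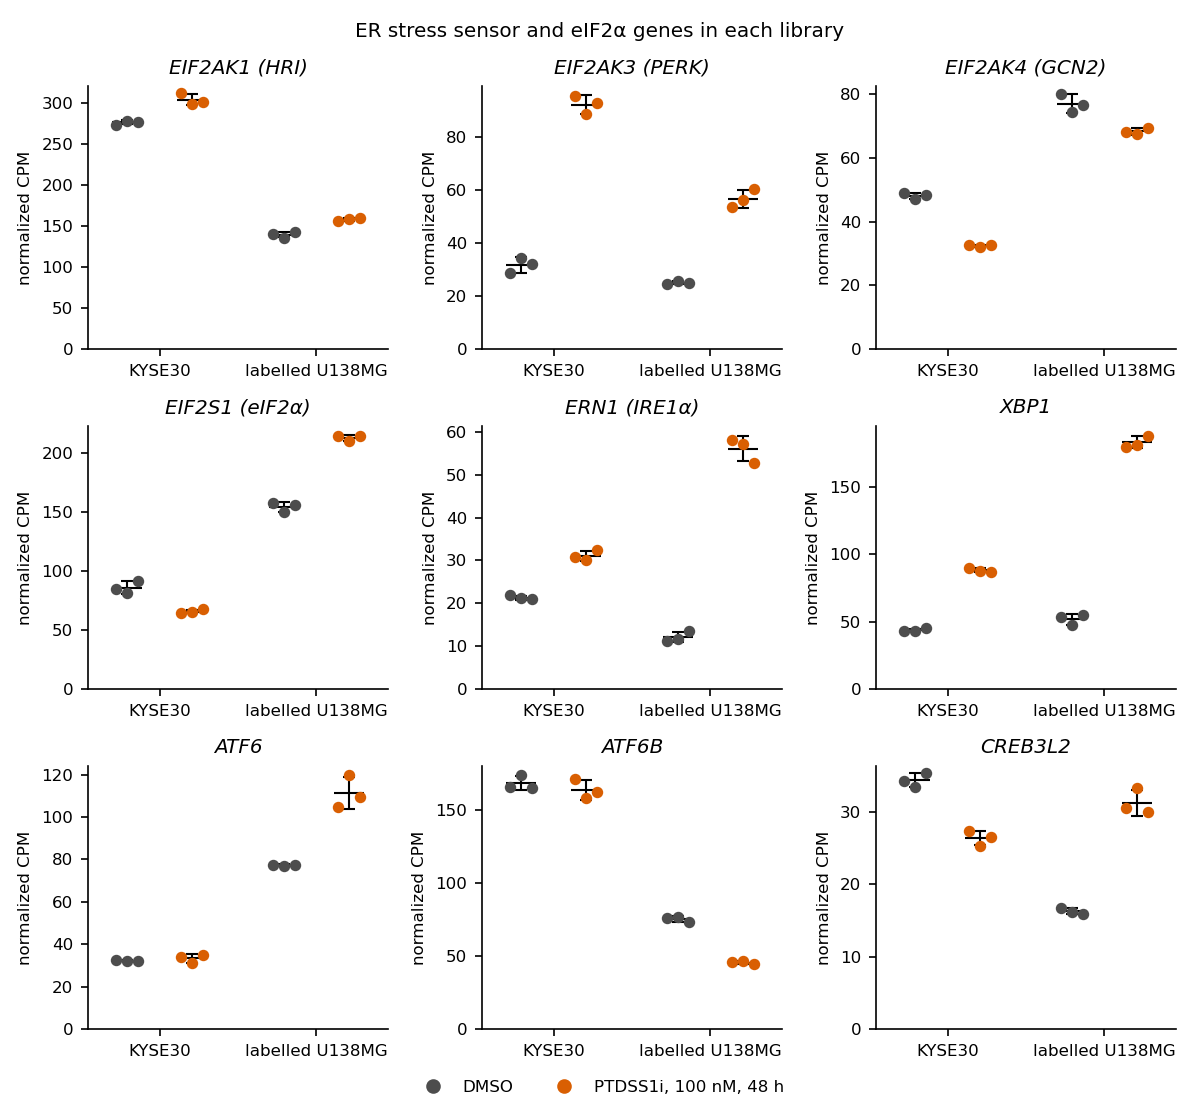
Each panel plots 1 gene, with normalized CPM on the vertical axis from 0, a point for each library, a long line at each group mean and bars of 1 SD (n = 3), DMSO and PTDSS1i side by side in KYSE30 and in the libraries labelled U138MG. EIF2AK3 and XBP1 are higher under PTDSS1i in both lines without overlap, and EIF2S1 and CREB3L2 are lower in KYSE30 and higher in the libraries labelled U138MG.

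EIF2AK3 (chr2:88556741-88627576, minus strand, GRCh38 here and for all genes that follow) encodes PERK, the ER membrane kinase. In KYSE30 its normalized CPM, which is CPM scaled by TMM, was 28.7, 34.4 and 32.2 under DMSO and 95.3, 88.5 and 92.7 under PTDSS1i, in the order of the replicate numbers here and below. The libraries labelled U138MG had 24.6, 25.8 and 25.1 under DMSO and 53.7, 56.2 and 60.3 under PTDSS1i. Every PTDSS1i library of a line lay well above every DMSO library. The rise was 2.90-fold in KYSE30 (31.8 ± 2.85 to 92.2 ± 3.44, mean ± SD, n = 3, log2 fold change 1.54, SE 0.065, edgeR adjusted p = 1.08e-14). It was 2.25-fold in the libraries labelled U138MG (25.2 ± 0.644 to 56.7 ± 3.31, log2 fold change 1.17, SE 0.058, adjusted p = 1.41e-16). The antisense gene AC104134.1, not tested here, lies opposite 14.4% of its exon sequence, and EIF2AK3-DT opposite 0.699%.

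EIF2AK1 (chr7:6022244-6059230, minus strand) encodes HRI, the kinase that responds to heme shortage. KYSE30 had 274, 278 and 277 normalized CPM under DMSO and 312, 299 and 301 under PTDSS1i, and the libraries labelled U138MG had 141, 136 and 143 under DMSO and 156, 159 and 159.8 under PTDSS1i. The groups did not overlap, but they lay close together. The log2 fold changes were 0.14 (SE 0.049, adjusted p = 0.0174) in KYSE30 and 0.18 (SE 0.036, adjusted p = 7.79e-05) in the libraries labelled U138MG. Both calls were lost with library size alone, where the changes were 0.033 (adjusted p = 0.525) and 0.031 (adjusted p = 0.448), and the call in KYSE30 was lost without PTDSS1i replicate 1 (0.12, adjusted p = 0.0833). Of its exon sequence, 9.59% lies opposite exons of AIMP2 on the other strand, whose log2 fold change was -0.68 in KYSE30 and 0.62 in the libraries labelled U138MG.

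EIF2AK4 (chr15:39934146-40035591, plus strand) encodes GCN2, the kinase that binds uncharged tRNA. It was the kinase gene of these 3 that fell in both lines. KYSE30 had 48.8, 47.1 and 48.2 normalized CPM under DMSO and 32.6, 32.1 and 32.5 under PTDSS1i. Those labelled U138MG had 80.1, 74.3 and 76.4 under DMSO and 68.2, 67.3 and 69.4 under PTDSS1i. Replicates were tight in both lines, and no libraries overlapped. The log2 fold change was -0.57 (SE 0.059, adjusted p = 3.00e-08) in KYSE30 and -0.17 (SE 0.044, adjusted p = 0.00124) in the libraries labelled U138MG, where library size alone and upper-quartile scaling both gave -0.32. EIF2AK2, the remaining eIF2α kinase gene, for the double-stranded RNA sensor PKR, rose by 0.66 on the log2 scale in KYSE30 and by 0.17 in the libraries labelled U138MG, where the call was lost with library size alone (0.020) and with upper-quartile scaling (0.021).

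Levels of different genes were compared as normalized CPM per kb of exon. The length was that of all annotated exons of a gene merged, 5434 bases for EIF2AK3 and 11957 for EIF2AK4. The order of genes can depend on it. In KYSE30 under DMSO, EIF2AK4 had 48.0 normalized CPM and EIF2AK3 31.8, but 4.02 and 5.85 per kb. On this scale EIF2AK1 led the 3 kinase genes in every group, and PTDSS1i changed their proportions. EIF2AK3 made up 9.79% ± 0.735 of their summed level under DMSO and 22.8% ± 0.367 under PTDSS1i in KYSE30 (SD, n = 3). In the libraries labelled U138MG its share was 12.8% ± 0.555 and 23.4% ± 0.838. The EIF2AK4 share went from 6.74% to 3.64% in KYSE30 and from 17.7% to 12.8% in the libraries labelled U138MG. EIF2AK1 still held 73.6% and 63.8% of the sum under PTDSS1i, against 83.5% and 69.5% under DMSO. The shares of EIF2AK3 and EIF2AK4 did not overlap between the treatments in any library of a line. No scaling between libraries enters a share, but the exon lengths do.

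EIF2S1 (chr14:67359997-67386516, plus strand) encodes eIF2α, the substrate of all these kinases and a subunit of the factor that brings the initiator tRNA to the ribosome. It moved in opposite directions in the lines. In KYSE30 it was 84.9, 81.2 and 91.6 normalized CPM under DMSO and 64.6, 64.8 and 67.5 under PTDSS1i. In the libraries labelled U138MG it was 158, 149 and 156 under DMSO and 214, 209.6 and 214 under PTDSS1i. The groups were apart in both lines. The log2 fold change was -0.39 (SE 0.057, adjusted p = 4.07e-06) in KYSE30 and 0.46 (SE 0.035, adjusted p = 2.06e-12) in the libraries labelled U138MG. ATP6V1D lies opposite 4.76% of the exon sequence and rose in both lines, by 0.80 and 0.89 on the log2 scale.

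The other subunits of eIF2 and of eIF2B, its exchange factor, with EIF5 and CDC123, were mixed. Of 9 such genes, 3 rose and 4 fell in KYSE30 (median log2 fold change -0.099), where 30.1% and 32.0% of all genes did. In the libraries labelled U138MG 5 rose and 2 fell (median 0.13), against 33.9% and 33.6% of all genes. With library size alone the counts were 1 higher and 5 lower in KYSE30, and 2 higher and 4 lower in the libraries labelled U138MG (median -0.016), as with upper-quartile scaling in the latter. EIF2S2, the β subunit of eIF2, rose from 232 ± 19.2 to 269.6 ± 11.7 normalized CPM in KYSE30 and from 229 ± 11.4 to 454 ± 15.9 in the libraries labelled U138MG (log2 fold changes 0.22 and 0.98), with the call in KYSE30 lost with library size alone (0.12, adjusted p = 0.0608). The γ subunit EIF2S3 did not pass in KYSE30 (-0.099), where it was lower with library size alone (-0.20) and upper-quartile scaling (-0.12), and fell by 0.088 in the libraries labelled U138MG. Among eIF2B genes, EIF2B2 rose (0.34 and 0.72) and EIF2B1 fell (-0.32 and -0.38) in both, while EIF2B3 fell in KYSE30 (-0.58) and rose in the libraries labelled U138MG (0.26), where the call was lost with library size alone (0.12, adjusted p = 0.24) and with upper-quartile scaling. CDC123 likewise fell in KYSE30 (-0.32) and rose in the libraries labelled U138MG (0.13), a call lost with the same scalings (-0.016 and -0.015).

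Genes that control the phosphorylation of eIF2α were 4 higher and 3 lower of 11 in KYSE30 and 5 higher and 4 lower of 11 in the libraries labelled U138MG, where the shares of all genes were 30.1% and 32.0%, and 33.9% and 33.6%. Their medians, 0.027 and 0.013, were -0.078 and -0.13 with library size alone. PPP1R15A, the stress-induced GADD34 that brings phosphatase to eIF2α, rose by 0.94 on the log2 scale in KYSE30 and by 1.79 in the libraries labelled U138MG. Its constitutive relative PPP1R15B rose by 0.47 and 1.07. The phosphatase gene PPP1CB rose by 0.60 and 0.70, while PPP1CC fell (-0.35 and -0.47). DNAJC3, the PERK inhibitor p58IPK, rose by 0.38 and 0.87, and OMA1, the mitochondrial protease that cleaves DELE1, fell (-0.52 and -0.19). IMPACT, an inhibitor of GCN2 activation, fell in KYSE30 (-0.57) and stood at -0.0011 in the libraries labelled U138MG, where it did not pass but was lower with library size alone and with upper-quartile scaling (-0.15 each). DELE1, which carries mitochondrial stress to HRI, fell in the libraries labelled U138MG (-0.58) and did not pass in KYSE30 (0.027). GCN1, on the same list, rose in the libraries labelled U138MG (0.62). It did not pass in KYSE30 (-0.024), where it was lower with library size alone (-0.13, adjusted p = 0.0188).

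**Figure D2:**
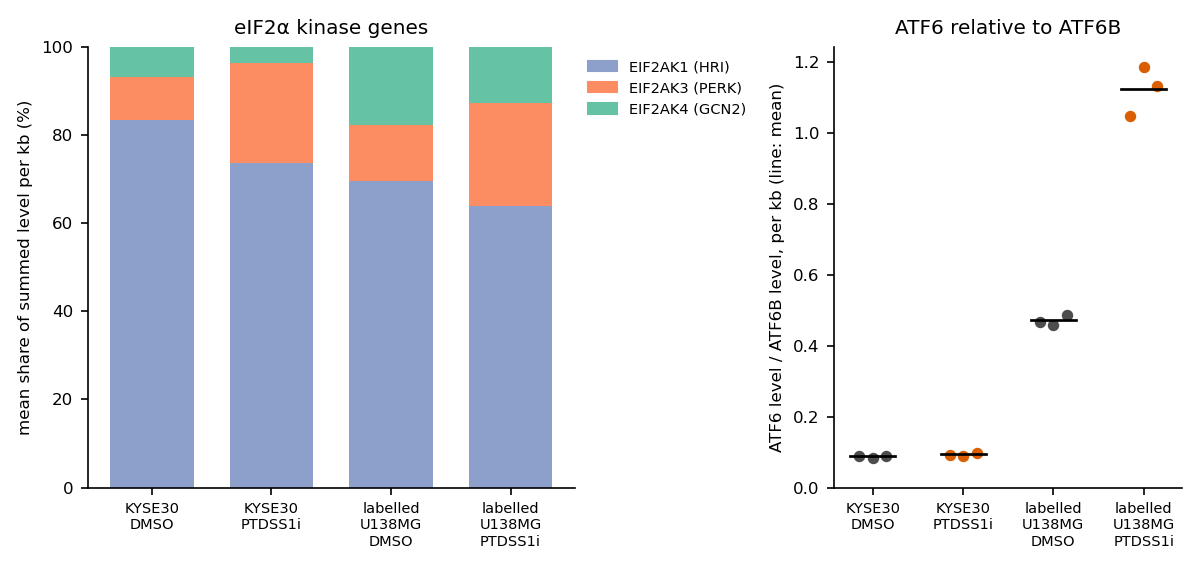
The left panel stacks the mean share of EIF2AK1, EIF2AK3 and EIF2AK4 in their summed level per kb of exon, in percent, for the 4 groups (n = 3), and the right panel plots the ratio of ATF6 to ATF6B per kb, a point for each library and a line at the mean. The EIF2AK3 share is larger under PTDSS1i in both lines, and the ratio is above 1 only in the PTDSS1i libraries labelled U138MG.

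ERN1 (chr17:64039142-64130819, minus strand) encodes IRE1α, the ER kinase and RNase that splices XBP1. KYSE30 had 21.8, 21.2 and 21.0 normalized CPM under DMSO and 30.8, 30.2 and 32.4 under PTDSS1i. Those labelled U138MG had 11.2, 11.8 and 13.5 under DMSO and 58.2, 57.2 and 52.7 under PTDSS1i. The latter is the largest fold change of the 9 genes in either line. ERN1 rose 4.59-fold there (12.2 ± 1.22 to 56.0 ± 2.90, n = 3, log2 fold change 2.20, SE 0.071, adjusted p = 5.72e-21) and 1.46-fold in KYSE30 (log2 fold change 0.55, SE 0.068, adjusted p = 4.72e-07). Its paralog ERN2 was not tested, with 0 to 1 counts per library in KYSE30 and 1 to 10 in the libraries labelled U138MG.

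XBP1 (chr22:28794555-28800597, minus strand) rose in both lines. KYSE30 had 42.9, 43.4 and 45.1 normalized CPM under DMSO and 89.96, 87.9 and 86.8 under PTDSS1i. The libraries labelled U138MG had 53.4, 47.4 and 55.1 under DMSO and 179.5, 181 and 188 under PTDSS1i. Every PTDSS1i library lay above every DMSO library of its line. The rise was 2.01-fold in KYSE30 (43.8 ± 1.16 to 88.2 ± 1.60, log2 fold change 1.01, SE 0.055, adjusted p = 6.89e-13) and 3.53-fold in the libraries labelled U138MG (51.9 ± 4.04 to 183 ± 4.43, log2 fold change 1.82, SE 0.046, adjusted p = 1.22e-21). No other gene shares its exons in the annotation, nor those of ERN1, ATF6, EIF2AK4 or CREB3L2.

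Of 14 known targets of spliced XBP1, 10 rose and 1 fell in KYSE30 and 14 of 14 rose in the libraries labelled U138MG, with medians of 0.30 and 0.88. Of all genes, 30.1% rose and 32.0% fell in KYSE30, and 33.9% rose in the libraries labelled U138MG. In KYSE30 the targets that rose were 7 with library size alone (median 0.19) and 9 with upper-quartile scaling. All 14 rose under both scalings in the libraries labelled U138MG. DNAJB9, an ER co-chaperone that binds IRE1α, rose by 0.92 on the log2 scale in KYSE30 and by 1.57 in the libraries labelled U138MG. EDEM1, which marks misfolded glycoproteins for degradation, rose by 0.75 and 1.49. SYVN1, the ubiquitin ligase HRD1, rose by 0.79 and 0.95, and SEC24D, a cargo subunit of the COPII coat, by 0.96 and 1.52. SRPRB, a subunit of the signal recognition particle receptor, was the target that fell in KYSE30 (-0.30), and it rose in the libraries labelled U138MG (0.89).

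IRE1α also cuts other mRNAs. Of 7 such known substrates 6 were tested, and 2 rose and 3 fell in KYSE30 (median -0.34), where 30.1% and 32.0% of all genes did. In the libraries labelled U138MG 2 rose and 2 fell, against 33.9% and 33.6% of all genes. The median there was 0.064, which is -0.083 with library size alone. SCARA3, a scavenger receptor gene, fell by 0.90 on the log2 scale in KYSE30 and by 1.88 in the libraries labelled U138MG. SPARC, a matrix glycoprotein gene, fell by 0.89 in the latter (678 ± 14.7 to 367 ± 11.7 normalized CPM) and by 1.24 in KYSE30, where it was low (4.38 ± 1.00 to 1.89 ± 0.603). BLOC1S1, the substrate most used as a readout, did not pass in either line (-0.17 and -0.035), but was lower in the libraries labelled U138MG with library size alone (-0.18, adjusted p = 0.0287) and with upper-quartile scaling (-0.18). COL6A1 and HGSNAT were the substrates that rose, in both lines, with the call of HGSNAT in the libraries labelled U138MG lost under these scalings (0.065 and 0.066).

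ATF6 (chr1:161766294-161964070, plus strand) encodes the sensor whose cleaved form activates ER chaperone genes. KYSE30 had 32.4, 32.0 and 32.2 normalized CPM under DMSO and 34.2, 31.1 and 34.8 under PTDSS1i, so the groups overlapped. The libraries labelled U138MG had 77.6, 76.8 and 77.5 under DMSO and 105, 119.7 and 109.6 under PTDSS1i, all 3 above DMSO. The log2 fold change was 0.054 in KYSE30 (95% interval -0.082 to 0.19, adjusted p = 0.488), with the sign reversed by library size alone (-0.051). It was 0.53 in the libraries labelled U138MG (SE 0.045, adjusted p = 2.50e-11), a rise of 1.44-fold.

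ATF6B (chr6:32115264-32128253, minus strand) encodes the paralog of ATF6, a weaker activator. KYSE30 had 166, 174 and 165 normalized CPM under DMSO and 172, 158 and 162 under PTDSS1i, which overlapped. The libraries labelled U138MG had 76.2, 77.0 and 73.1 under DMSO and 46.0, 46.4 and 44.5 under PTDSS1i, without overlap. It was not called in KYSE30 (log2 fold change -0.038, 95% interval -0.14 to 0.068, adjusted p = 0.537), but was lower with library size alone (-0.14, adjusted p = 0.0145). It fell in the libraries labelled U138MG (log2 fold change -0.73, SE 0.047, adjusted p = 4.79e-14), the largest fall among the 9 genes. Exons of TNXB and of the processed transcript AL662884.2 share 1.96% and 7.96% of its exon sequence on the same strand.

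The paralogs therefore stood in different proportions. The level of ATF6 per kb divided by that of ATF6B was 0.0845 to 0.0898 under DMSO and 0.0904 to 0.0987 under PTDSS1i in KYSE30. In the libraries labelled U138MG it was 0.459 to 0.488 under DMSO and 1.05 to 1.19 under PTDSS1i. Per kb, ATF6B was the higher of the pair in all 6 KYSE30 libraries and in the 3 DMSO libraries labelled U138MG. ATF6 was higher in the 3 PTDSS1i libraries labelled U138MG, but by little. The ratio divides by annotated exon lengths, and ATF6B shares exon sequence with other genes on its strand. Which paralog was the more abundant in those 3 libraries is therefore not settled.

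Of 11 known ATF6 targets, 5 rose and 3 fell in KYSE30 (median 0.091, which is -0.013 with library size alone), where 30.1% and 32.0% of all genes did. In the libraries labelled U138MG 10 rose and 1 fell (median 0.73), against 33.9% and 33.6% of all genes. HERPUD1, an organizer of ER-associated degradation, rose by 1.48 on the log2 scale in KYSE30 and by 2.03 in the libraries labelled U138MG. HSPA5, the chaperone BiP that also holds the sensors inactive, rose from 713 ± 42.9 to 1025 ± 8.53 normalized CPM in KYSE30 and from 389.96 ± 23.7 to 1106 ± 29.9 in the libraries labelled U138MG (log2 fold changes 0.52 and 1.50). HYOU1 and MANF, a chaperone and a secreted ER protein, rose by 1.33 each in the libraries labelled U138MG. In KYSE30 MANF rose by 0.24, a call lost with library size alone (0.13, adjusted p = 0.153), and HYOU1 did not pass (0.091). PDIA4 and SDF2L1 fell in KYSE30 (-0.36 and -0.39) and rose in the libraries labelled U138MG (0.47 and 0.73).

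CREB3L2 (chr7:137874979-138002067, minus strand) encodes BBF2H7, a membrane-held transcription factor cleaved like ATF6 and known for secretory pathway genes. In KYSE30 it was 34.3, 33.4 and 35.4 normalized CPM under DMSO and 27.3, 25.3 and 26.5 under PTDSS1i. In the libraries labelled U138MG it was 16.7, 16.2 and 15.8 under DMSO and 30.6, 33.3 and 29.9 under PTDSS1i. It thus fell in one line and rose in the other, without overlap in either. The log2 fold change was -0.38 (SE 0.065, adjusted p = 3.17e-05) in KYSE30 and 0.94 (SE 0.072, adjusted p = 2.71e-12) in the libraries labelled U138MG, a rise of 1.92-fold. Its 3 listed targets encode COPII coat subunits. SEC24D rose in both lines, as given above, and SEC23A did too (0.27 and 0.73), while SEC23B did not pass in KYSE30 (0.066) and rose by 1.21 in the libraries labelled U138MG.

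Among the relatives of CREB3L2, CREB3 rose (0.78 and 0.48) and CREB3L4 fell (-0.31 and -0.97) in both lines. CREB3L1 and CREB3L3 had at most 3 counts in any library and were not tested. With EIF2AK2 and ERN2 these make up 6 relatives of the 9 genes, of which 3 were tested, and 2 rose and 1 fell in each line. Of all genes, 30.1% rose and 32.0% fell in KYSE30, and 33.9% and 33.6% in the libraries labelled U138MG.

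An interaction term of line and treatment, in 1 edgeR fit over all 12 libraries, tested whether the lines responded differently. It differed for 8 of the 9 genes, against 49.9% of 18405 genes tested. In that fit the log2 fold changes in KYSE30 and in the libraries labelled U138MG were 0.59 and 2.20 for ERN1, a difference of 1.61 (SE 0.10, adjusted p = 1.77e-14). CREB3L2 had -0.34 and 0.95, a difference of 1.29 (adjusted p = 8.75e-13), and EIF2S1 had -0.35 and 0.46, a difference of 0.81 (adjusted p = 8.81e-12). XBP1 (difference 0.77, adjusted p = 2.27e-10), ATF6 (0.43, adjusted p = 3.21e-05) and EIF2AK4 (0.36, adjusted p = 1.12e-04) also had the higher value in the libraries labelled U138MG. EIF2AK3 and ATF6B had the lower one, by -0.40 (adjusted p = 2.47e-04) and -0.73 (adjusted p = 6.04e-11). For EIF2AK1 the 95% interval of the difference ran from -0.15 to 0.15 (adjusted p = 1.00).

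**Figure D3:**
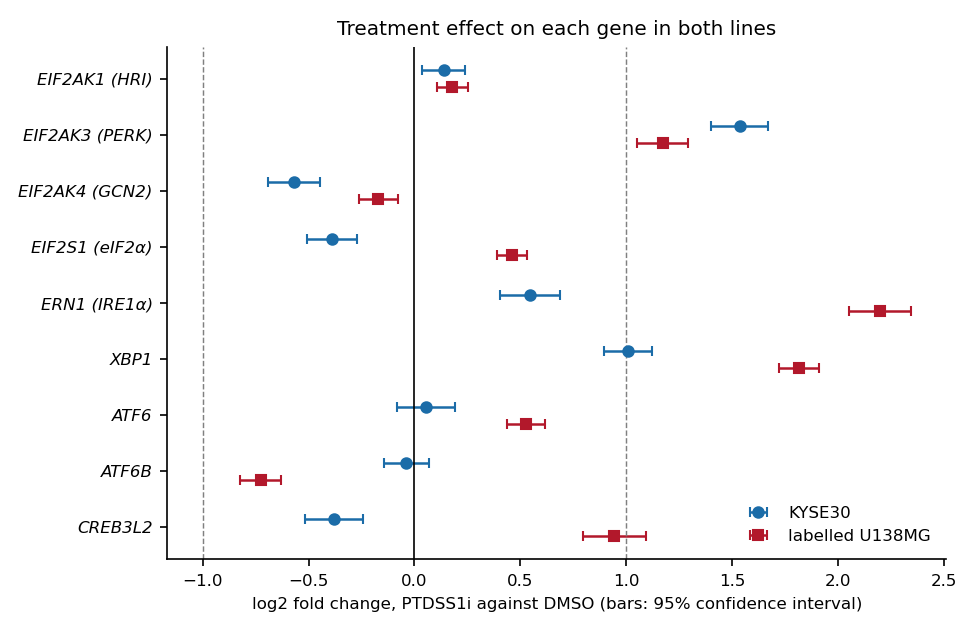
The horizontal axis gives the log2 fold change of PTDSS1i against DMSO for each of the 9 genes, circles for KYSE30 and squares for the libraries labelled U138MG, each from the fit of its own line with its 95% confidence interval. EIF2S1 and CREB3L2 lie on opposite sides of 0 in the lines, and ERN1 is farthest right, at 2.20, in the libraries labelled U138MG.

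Per kb of exon, EIF2AK1 and ATF6B were highest in KYSE30 under DMSO, at 49.8 ± 0.444 and 46.4 ± 1.33 normalized CPM per kb. EIF2S1 (15.2) and XBP1 (14.5) followed and overlapped each other, and EIF2AK3 (5.85) came next. ATF6 (4.08), EIF2AK4 (4.02) and CREB3L2 (3.91) could not be told apart from their neighbours in this order, and ERN1 was lowest at 1.96. Under PTDSS1i XBP1 (29.1) and EIF2AK3 (17.0) stood above EIF2S1 (11.6), and EIF2AK4 (2.71) was lowest, below CREB3L2 (3.00) and ERN1 (2.87), which overlapped.

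In the libraries labelled U138MG the order under DMSO was EIF2S1 at 27.3 ± 0.757 normalized CPM per kb, EIF2AK1 (25.2), ATF6B (20.8), XBP1 (17.2), ATF6 (9.80), EIF2AK4 (6.43), EIF2AK3 (4.63), CREB3L2 (1.85) and ERN1 (1.12). Under PTDSS1i XBP1 was first at 60.4 ± 1.46, before EIF2S1 (37.6) and EIF2AK1 (28.5). On this scale ATF6 (14.1) stood above ATF6B (12.6), an order that is not settled, as said above, and EIF2AK3 (10.4) above EIF2AK4 (5.71). ERN1 (5.16) had passed CREB3L2 (3.56). No neighbours in either order overlapped between libraries, but this covers the spread between libraries and not the exon lengths that enter the order. The 2 tables were counted on different gene lists, so a level in one line is not tested against the other.

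**Figure D4:**
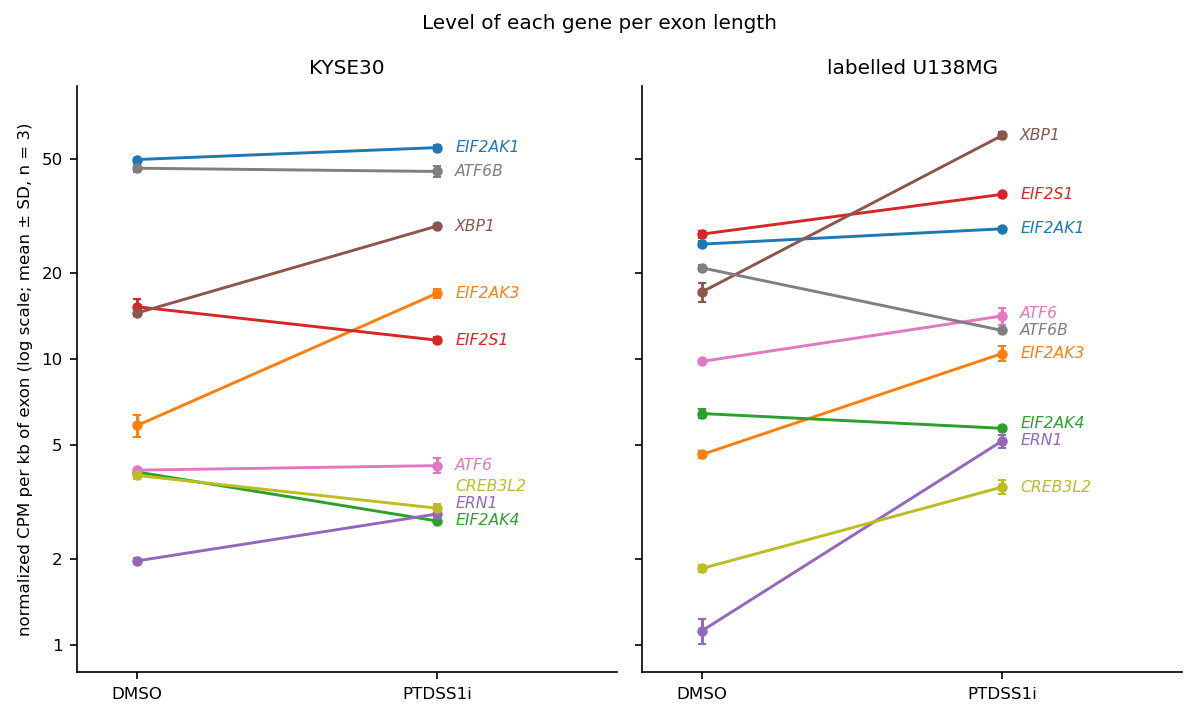
Normalized CPM per kb of exon is plotted on a log axis for the 9 genes under DMSO and PTDSS1i, mean ± SD with n = 3, KYSE30 on the left and the libraries labelled U138MG on the right. The lines of XBP1 and EIF2AK3 cross others upward in both lines, and ERN1 starts lowest in both.

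The lists around the 9 genes hold 79 other genes of these pathways, some of them on more than 1 list, and 75 were tested. In KYSE30 41 rose and 19 fell, and in the libraries labelled U138MG 55 rose and 11 fell, against the shares of all genes given above (30.1% and 32.0%, 33.9% and 33.6%). Their median log2 fold change was 0.19 and 0.59. These shares of all genes are also the background for the counts of each list. With library size alone 34 rose and 23 fell in KYSE30 (median 0.083), and 49 rose and 18 fell in the libraries labelled U138MG (median 0.44). Upper-quartile scaling gave 39 and 20 in KYSE30, and also 49 and 18 in the libraries labelled U138MG. Past 2-fold, 9 rose and 1 fell in KYSE30, where 6.40% and 7.04% of all genes did, and 19 rose and 1 fell in the libraries labelled U138MG, where 8.19% and 11.6% did.

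Targets downstream of PERK and ATF4 moved most. All 12 rose in both lines, 8 of them past 2-fold in KYSE30 and 9 in the libraries labelled U138MG, with medians of 1.35 and 1.77. CHAC1, which degrades glutathione, rose from 2.32 ± 0.411 to 18.0 ± 0.884 normalized CPM in KYSE30 and from 0.807 ± 0.342 to 16.6 ± 0.645 in the libraries labelled U138MG. DDIT3, the factor CHOP, rose by 2.03 on the log2 scale in KYSE30 and by 3.37 in the libraries labelled U138MG. ATF3 rose by 2.13 and 3.20, and TRIB3, a pseudokinase that restrains AKT and ATF4, by 1.63 and 3.45. ATF4 itself rose by 1.06 and 0.96. In the fit over all 12 libraries it rose by 1.10 and 0.97, and the difference did not pass the interaction test (-0.13, adjusted p = 0.0848). GCN2 and HRI signal through the same targets, so a list of ATF4 targets does not single out PERK.

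Proteins that bind or process the sensors gave 7 higher and 4 lower of 14 in KYSE30 and 10 higher and 1 lower of 14 in the libraries labelled U138MG, with medians of 0.14 and 0.41. The shares of all genes were 30.1% and 32.0%, and 33.9% and 33.6%. With library size alone the counts were 6 and 5 in KYSE30 (median 0.036) and 9 and 3 in the libraries labelled U138MG (median 0.26). PDIA5, a disulfide isomerase that acts on ATF6, rose by 1.33 on the log2 scale in the libraries labelled U138MG and did not pass in KYSE30 (0.094). The ligase RTCB, which joins the cut XBP1 mRNA, rose by 0.52 in the former and did not pass in KYSE30 (-0.031), where it was lower with library size alone (-0.14, adjusted p = 0.0204). OS9, a lectin of ER-associated degradation, rose in KYSE30 (0.48) and did not pass in the libraries labelled U138MG (-0.059), where it was lower with library size alone and with upper-quartile scaling (-0.21 and -0.20). MBTPS2, the protease of the next cut in ATF6, fell in KYSE30 (-0.36) and did not pass in the libraries labelled U138MG (0.078). MBTPS1, the Golgi protease that makes the first cut in ATF6, rose in KYSE30 (0.32) and fell in the libraries labelled U138MG (-0.20).

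**Figure D5:**
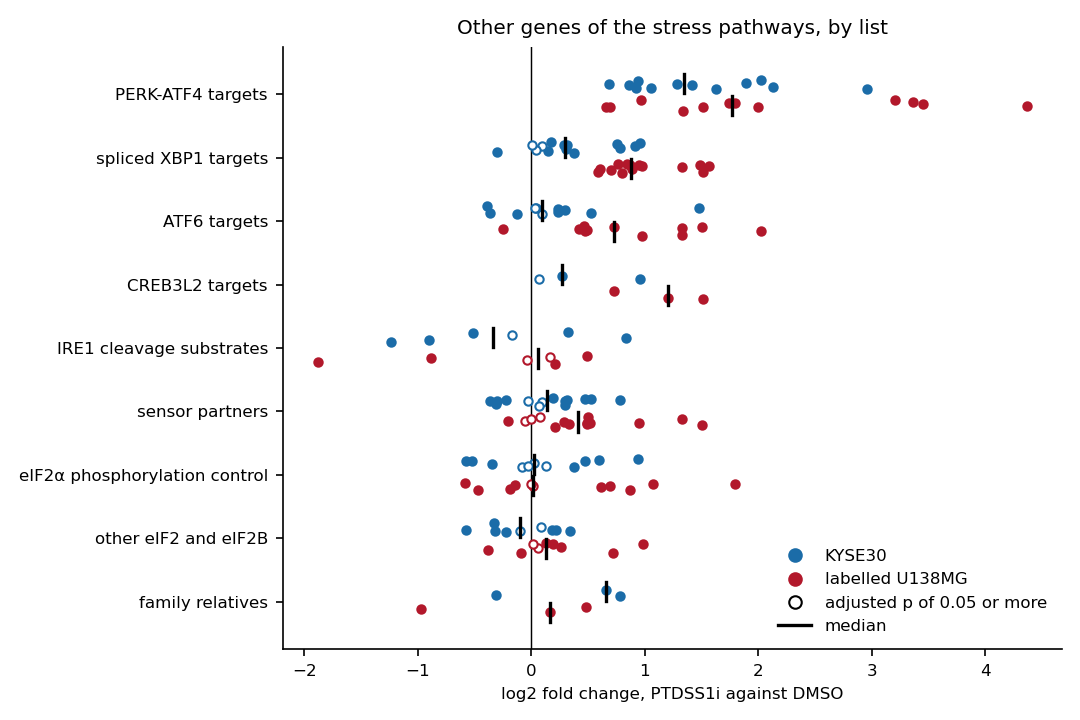
Points are the log2 fold changes of single genes in PTDSS1i against DMSO, grouped by list on the vertical axis, with KYSE30 above the libraries labelled U138MG in each list, open points for genes with an adjusted p of 0.05 or more and a bar at the list's median. The targets of PERK and ATF4 all lie above 0 in both lines, and the substrates of IRE1α lie on both sides of 0.

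Across the 75 genes, 61 differed between the lines in the interaction test, 49 with a larger value in the libraries labelled U138MG and 12 with a smaller one, where 49.9% of all genes tested differed. The lines differed for 13 of 14 XBP1 targets, 13 of them larger, for 10 of 11 ATF6 targets, 9 of them larger, and for all 3 CREB3L2 targets, all larger. Of the 12 targets of PERK and ATF4 10 differed, 8 of them larger in the libraries labelled U138MG, although EIF2AK3 itself rose less there.

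The genes with the most similar pattern were found for the 5 genes called in the same direction in both lines, by Pearson correlation of log2 normalized CPM centred within each line, over 12 libraries and 10272 genes. These values mostly express the shared difference between DMSO and PTDSS1i and are given as a description. They were TRIM25, FAM83A and MT-RNR2 for EIF2AK3 (r of 0.997 each), HIF1A (0.999), ABCC3 (0.997) and DUSP4 (0.996) for ERN1, and RNF145 (0.999), FADS1 (0.999) and GDF15 (0.998) for XBP1. For EIF2AK4 they were MDC1 (0.996), NSD2 (0.995) and RPA1 (0.994), and for EIF2AK1 TMCC1 (0.990), DRAM1 (0.986) and CDH5 (0.983). Between 364 genes, for EIF2AK1, and 932, for XBP1, had r above 0.95, so these names are not particular to their gene.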

How the data were processed

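The authors deposited unnormalized counts of reads per gene in a table for each line, with 30984 genes for KYSE30 and 78691 for U138MG. The submitters' processing notes name Trimmomatic, STAR, featureCounts and hg38. Versions, annotation and strand setting are not given in the sources used here, and the TruSeq v2 kit does not mark strand, so exons shared with an antisense gene cannot be assigned.

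Groups and replicates came from the sample labels, which call the 3 samples of a group biological replicates without naming separate cultures, so p-values measure the spread between these samples. The tables were joined by gene identifier without version. Tests used edgeR 4.0.16 in R 4.3.3 (filterByExpr with minimum count 10 and minimum total 15, TMM, robust quasi-likelihood fit, Benjamini-Hochberg over all genes), with limma 3.58.1 and DESeq2 1.42.0. Sequences and figures used pandas 2.3.3 and matplotlib 3.10.9 under Python 3.11.15. The scripts were tested on simulated data. Replicate pairs differed by more than sampling noise (chi-square per degree of freedom of 2.29 to 7.44 over genes with at least 20 counts), so each library counted as a sample. A count of 3 is 0.160 CPM in the smallest library, which covers counting error only. Exon lengths and overlaps came from GENCODE v29 and promoters from RefSeq.

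The members and lists were chosen with earlier results of these data known. From each list, up to 4 called genes with the largest change and at least 5 normalized CPM were named per line, with all relatives and the genes of lists of 3 or fewer. EIF2S3, EIF5, DELE1, GCN1, PPP1CC, BLOC1S1, MBTPS1, ATF4, SRPRB, HSP90B1, CALR, UFL1 and MAP3K5 fall outside this rule and were named after their values were seen, as were values of named genes in the line where the rule did not pick them. Likeness used a pseudocount of 0.5 CPM. Alternatives were library size alone, upper-quartile scaling, DESeq2, other filters, a replicate block, both lines fitted together, and each library left out.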

Additional observations from a re-analysis of the deposited data

Results flagged for a closer look

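The response of 8 of the 9 genes differed between the lines in the interaction test of edgeR, given as the log2 fold change in the libraries labelled U138MG minus that in KYSE30. The difference was 1.61 for ERN1, 1.29 for CREB3L2, 0.81 for EIF2S1, 0.77 for XBP1, 0.43 for ATF6 and 0.36 for EIF2AK4. It was -0.40 for EIF2AK3 and -0.73 for ATF6B. EIF2S1 and CREB3L2 passed the test in opposite directions in the lines. Each of these 8 kept its sign and its call under the 6 other settings and with each of the 12 libraries left out, over which the adjusted p was at most 0.00417. The lines came in separate count tables, and any batch would go with the line. The marker genes of the libraries labelled U138MG also go against their label. A difference of lines, of batches and of what was cultured therefore cannot be told apart.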

How the results depend on the processing

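In KYSE30 the number of the 9 genes higher past 2-fold was 2, and 1 with library size alone, with upper-quartile scaling and without the low-count filter, because XBP1 came under the threshold. With single libraries left out it was 1 to 2. The other pathway genes that fell in the libraries labelled U138MG were 11, and 18 with library size alone and with upper-quartile scaling. Those that rose there were 55, and 49 with both. In KYSE30 library size alone took the other pathway genes from 41 to 34 higher and from 19 to 23 lower. EIF2AK1 lost its call with library size alone in KYSE30 (0.033) and in the libraries labelled U138MG (0.031), where upper-quartile scaling gave 0.032, and without PTDSS1i replicate 1 in KYSE30 (0.12). ATF6 in KYSE30 was -0.051 with library size alone. ATF6B in KYSE30 was called at -0.14 with library size alone and was 0.0033 with both lines fitted together. The difference between the lines of EIF2AK1, near 0 in the fit reported, turned positive without the low-count filter (0.0098), with the replicate block (0.00036), without KYSE30 PTDSS1i replicate 1 (0.0064) and without DMSO replicate 3 of the libraries labelled U138MG (0.0021), and was called under none of these. Over the single libraries left out it ran from -0.025 to 0.0064, and over the 6 other settings from -0.11 to 0.0098. The smallest adjusted p of this interaction over all of these was 0.0996. The cause of these changes was not tested. Medians of 4 lists changed sign with library size alone: those of eIF2α control in both lines, of ATF6 targets in KYSE30, and of eIF2 subunits and IRE1α substrates in the libraries labelled U138MG.

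The fit reported did not treat the replicate numbers as pairs, and the values do not settle whether they pair the samples. The correlation of same-numbered samples was 0.10, 0.088 and 0.046 in KYSE30, where every DMSO sample correlated best with the PTDSS1i sample of its number. It was -0.0045, 0.0071 and 0.070 in the libraries labelled U138MG, where not every DMSO sample did. With the number as a block the other pathway genes were 41 higher and 19 lower in KYSE30 and 55 and 11 in the libraries labelled U138MG, the same counts as without it, and no call of the 9 genes changed.

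With 3 libraries a group, genes of few counts such as CREB3L1, CREB3L3 and ERN2 could not be tested, and spliced XBP1 is not measured by counts per gene.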

Other observations

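Some ER genes on the lists passed the test in opposite directions in the lines. They were chosen after their values were seen. HSP90B1, the ER chaperone GRP94, fell in KYSE30 from 633 ± 15.5 to 579.7 ± 14.7 normalized CPM and rose in the libraries labelled U138MG from 719.8 ± 26.6 to 962 ± 24.2 (log2 fold changes -0.13 and 0.42). CALR, the lectin chaperone calreticulin, did the reverse, at 0.24 and -0.24. UFL1, the ligase of the UFM1 modifier, was lower in KYSE30 (-0.31) and higher in the libraries labelled U138MG (0.21), where the call was lost with library size alone (0.064, adjusted p = 0.29) and with upper-quartile scaling (0.065, adjusted p = 0.283). The same directions were seen for MAP3K5, the kinase ASK1 downstream of IRE1α (-0.22 and 0.29). The interaction test passed for each, with differences of 0.51, -0.52, 0.48 and 0.47. With library size alone each of these within-line changes moves downward, by about the shift of the median of all genes given above.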
